A study of Mus musculus with 194 samples.

Results

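The nucleus accumbens (NAc) was profiled by 3′-RNA-seq after the fifth of 5 daily doses of cocaine. The libraries were those whose labels name the NAc and chronic treatment, called repeated cocaine here, which gave 8 of the 194 libraries of the series. They comprised 2 mice at each of 0, 1, 2 and 4 hr, all sequenced in 1 run. The question was which transcripts changed in this structure after a further dose in mice with previous cocaine experience, and when.

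All mice were males of the C57BL/6OLAHSD strain. They were 6 to 7 weeks old before acclimation, and so were older when sampled. They had been handled and habituated to saline injections on 3 days before cocaine. Cocaine was given i.p. at 20 mg/kg once a day. The 1, 2 and 4 hr mice had received 5 doses, and the 0 hr mice had received 4 doses and were taken from the home cage 24 hr after the last, with no injection on that day. Per the methods of the study, locomotion was recorded in an open field after each injection. Because no group received saline on that day, the effects of cocaine, of the injection and of the open field cannot be told apart. Every mouse of the time course had received at least 4 doses, so its 0 hr mice are not naive. Acute cocaine in the NAc (14 libraries, first dose, naive mice at 0 hr) and a challenge dose after 21 days of abstinence (8 libraries of 1 run) came from 2 other runs, and were compared only as changes from the 0 hr mice of their own run.

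The NAc receives dopamine input, and cocaine raises extracellular dopamine by blocking its reuptake. Most neurons of this structure are spiny projection neurons (SPNs), which express either the D1 or the D2 dopamine receptor. Dopamine and glutamate signals in these neurons activate kinases that phosphorylate CREB and SRF cofactors, and these switch on immediate-early genes (IEGs) without new protein synthesis. Many IEG products are transcription factors, such as the Fos, Jun, Egr and Nr4a families, and others act at synapses or end the signal.

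Between 3084591 and 4072800 reads per library were assigned to genes, and 12372 genes had enough reads to be tested. Levels are given as CPM (a gene's counts scaled to the library size), and log2 fold changes (log2FC) with SE came from edgeR. A gene was called at a Benjamini-Hochberg adjusted p under 0.05 and a fold change over 1.2. Unless another fit is named, calls are those of the edgeR fit of the 8 libraries with genes of low counts filtered out. Markers of SPNs were high in all 8 mice, with the summed CPM of 14 genes shared by both SPN types between 9538 and 11898. Hypothalamic markers were near 0, at 13.0 to 22.8 CPM summed over 7 genes. Markers of neighboring tissue varied more. Those of cortical excitatory neurons, 8 genes, summed to 265 and 439 CPM at 0 hr, 172 and 519 at 1 hr, 303 and 281 at 2 hr, and 150 and 292 at 4 hr. The first 0 hr mouse stood apart from the other 7 in stress-responsive genes and in Prkcd and Zic1, genes singled out after their values were seen. Prkcd was at 129 CPM in this mouse and between 22.0 and 40.6 in the others, and Zic1 at 128 against 37.4 to 50.6.

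At 1 hr after repeated cocaine, 5 genes were higher than at 0 hr and none was lower, which is 0.0404% of the genes tested. They were Junb, Fosb, Egr4 and Nr4a1, which encode transcription factors, and Arc, which encodes a protein that takes part in the removal of AMPA receptors from synapses. The increases ranged from 2.05-fold for Egr4 to 3.28-fold for Fosb. At 2 hr and at 4 hr, no gene passed the test against 0 hr. Without adjustment, p was under 0.05 for 518 genes at 1 hr, 641 at 2 hr and 743 at 4 hr (4.19%, 5.18% and 6.01% of those tested). DESeq2 also called 5, 0 and 0 genes. Without the first 0 hr mouse, 2 genes were called at 1 hr, Junb and Sgk1, both higher. Without the second, 12 were called at 1 hr, 4 higher and 8 lower, and 7 at 2 hr, all lower. At 4 hr, leaving out 1 mouse gave 0 to 4 genes, the most without the first 1 hr mouse. Without the second 1 hr mouse, 28 were called at 1 hr, 16 higher and 12 lower, and Junb was called at 1 hr whichever mouse was left out. With no filter on low counts, 18 genes were called at 1 hr (13 higher and 5 lower), 7 at 2 hr (3 and 4) and 26 at 4 hr (13 and 13). In 1 model with the acute and challenge libraries, 10, 0 and 1 were called, and at 1 hr these were the same 5 genes, Dusp1, Egr2, Nr4a3 and Tiparp, which were higher, and Prkcd, which was lower. The Prkcd value rested on the first 0 hr mouse, since in the 8 libraries its log2FC at 1 hr was -1.76, without that mouse -0.33 and not called, and without the second 0 hr mouse -2.45. The 18 genes called with no filter included all of these 10, and also Fos, Fosl2 and Egr1.

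In the genome build GRCm38, Egr4 lies on chromosome 6 (85511121 to 85513589, minus strand), Fosb on chromosome 7 (19302696 to 19310051, minus strand) and Junb on chromosome 8 (84974484 to 84978718, minus strand). Arc (74669083 to 74672570, minus strand) and Nr4a1 (101254269 to 101274795, plus strand) are both on chromosome 15. All are protein-coding genes in GENCODE M21.

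The promoters of called genes are shown because these genes moved together at 1 hr. RefSeq (GRCm38.p6) windows from 250 bases before to 50 after the start were available for Egr4, Fosb, Junb and Nr4a1. The RefSeq start used for Nr4a1 lies inside its GENCODE gene. Capitals mark TGACG on either strand, the core of the cAMP response element bound by CREB, and the start site lies after the first 250 bases.
Junb, chr8:84978699-84978998, minus strand: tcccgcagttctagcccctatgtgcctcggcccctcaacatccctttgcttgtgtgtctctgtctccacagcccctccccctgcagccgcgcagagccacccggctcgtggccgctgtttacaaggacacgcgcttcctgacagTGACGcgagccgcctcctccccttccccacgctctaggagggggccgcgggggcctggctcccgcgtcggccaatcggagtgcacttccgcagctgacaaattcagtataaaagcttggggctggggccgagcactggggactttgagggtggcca
Fosb, chr7:19309996-19310295, minus strand: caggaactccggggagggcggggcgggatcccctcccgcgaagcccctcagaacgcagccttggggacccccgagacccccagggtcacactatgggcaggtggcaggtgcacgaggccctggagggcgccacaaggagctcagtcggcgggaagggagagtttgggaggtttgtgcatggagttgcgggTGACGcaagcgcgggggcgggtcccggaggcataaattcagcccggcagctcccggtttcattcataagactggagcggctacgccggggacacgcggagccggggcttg
Egr4, chr6:85513540-85513839, minus strand: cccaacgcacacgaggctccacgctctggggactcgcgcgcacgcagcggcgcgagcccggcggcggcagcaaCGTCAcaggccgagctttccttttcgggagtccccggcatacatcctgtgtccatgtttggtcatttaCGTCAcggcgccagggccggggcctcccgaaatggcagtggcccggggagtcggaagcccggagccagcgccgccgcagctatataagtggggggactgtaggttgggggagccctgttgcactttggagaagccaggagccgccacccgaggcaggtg
Nr4a1, chr15:101266596-101266895, plus strand: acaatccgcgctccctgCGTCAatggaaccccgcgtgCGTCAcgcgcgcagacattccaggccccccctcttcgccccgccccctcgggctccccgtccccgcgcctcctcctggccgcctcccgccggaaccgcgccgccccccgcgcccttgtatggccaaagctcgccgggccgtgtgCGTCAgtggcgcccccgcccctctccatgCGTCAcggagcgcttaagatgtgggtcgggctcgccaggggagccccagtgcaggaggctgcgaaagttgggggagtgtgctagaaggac
TGACG occurred once in the windows of Junb and Fosb, 2 times in that of Egr4 and 4 times in that of Nr4a1. The match began 106 bases before the start in Junb, 60 before it in Fosb, 177 and 109 before it in Egr4, and 233, 213, 69 and 40 before it in Nr4a1. Of all 32851 promoter windows of the same length, 20.8% held at least 1 match. The full palindrome TGACGTCA was in none of these windows and in 1.79% of all windows. For the CArG box, the site of SRF, only the strict form CCWWWWWWGG was searched, where W is A or T. This form was likewise in none of these windows and in 1.63% of all windows. Sites with a mismatch to it were not counted. GGGCGG, the GC box, occurred 3 times each in Fosb and Nr4a1, and in 35.7% of all windows. These matches describe the letters and were not tested for binding.

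Junb encodes a partner of Fos proteins in the AP-1 complex. It was at 148 and 133 CPM in the 0 hr mice, 305 and 326 at 1 hr, 179 and 139 at 2 hr and 146 and 177 at 4 hr. Both 1 hr mice were above all 6 others, and the 2 and 4 hr mice overlapped those of 0 hr. The log2FC at 1 hr was 1.17 (SE 0.12, 95% CI 0.93 to 1.41, adjusted p = 4.61e-06 by edgeR, n = 2 mice per time). By 2 hr the level had fallen by 0.98 on the log2 scale from its 1 hr value (adjusted p = 8.82e-05 by edgeR). It was the only gene called between 1 and 2 hr, 0.00808% of those tested. Without the second 2 hr mouse this call was lost (adjusted p = 0.072 by edgeR) and no gene was called. Without the first 2 hr mouse 2 genes were called, Arc and Junb, and without the first 1 hr mouse 5.

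Fosb, whose truncated product ΔFosB is known to persist in this structure under repeated psychostimulants, was at 9.16 and 10.8 CPM at 0 hr. It reached 38.2 and 27.5 CPM at 1 hr, 23.4 and 14.3 at 2 hr, and 10.6 and 19.1 at 4 hr. The gene was higher in both 1 and both 2 hr mice than in either 0 hr mouse, while the 4 hr mice overlapped them. The log2FC was 1.71 at 1 hr (SE 0.30, adjusted p = 0.0155 by edgeR), the largest of the called genes, and 0.94 at 2 hr (adjusted p = 0.94 by edgeR), where it was not called. At 1 hr it was 1.60 without the first 0 hr mouse, 1.84 without the second and 1.47 without the first 1 hr mouse. Fosb was not called in any of these fits. The reads do not separate the splice forms of Fosb.

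Of the 7 genes of the Fos and Jun family, 6 were tested and 2 were called, where 0.0404% of all genes were. Fos, the family member most used as an activity marker, was at 6.42 and 8.90 CPM at 0 hr, 19.8 and 20.01 at 1 hr, 9.52 and 9.77 at 2 hr and 7.50 and 7.04 at 4 hr. Both 1 hr mice were above all others, yet with 21 to 72 reads per library the log2FC of 1.38 (SE 0.31) did not pass the test (adjusted p = 0.19 by edgeR). Fosl2 gave 0.84 at 1 hr (adjusted p = 0.49), with 56.8 and 37.0 CPM against 26.0 and 26.4. Jun and Jund, at 0.13 and 0.08, overlapped between the 1 and 0 hr mice. The median log2FC over the tested members was 1.00 at 1 hr, 0.26 at 2 hr and -0.02 at 4 hr, beside a median within 0.003 of 0 over all genes at each time.

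Egr4 belongs to the zinc finger factors of the Egr family. It was at 36.7 and 44.2 CPM at 0 hr, 87.0 and 78.4 at 1 hr, 50.05 and 45.2 at 2 hr and 37.0 and 43.6 at 4 hr. The 1 hr mice stood above every other mouse, with a log2FC of 1.03 (SE 0.15, adjusted p = 0.00167 by edgeR), and at 4 hr the log2FC against 0 hr was -0.00 (95% CI -0.34 to 0.33). Egr1, an IEG with a high level before the dose, was at 167 and 171 CPM at 0 hr, 235 and 220 at 1 hr, 185 and 159 at 2 hr and 123 and 163 at 4 hr. Both 1 hr mice were above all others, and the log2FC of 0.42 at 1 hr was not called (adjusted p = 0.65 by edgeR). Egr2 was at 3.36 and 1.59 CPM at 0 hr, 16.2 and 6.67 at 1 hr, 6.84 and 1.95 at 2 hr and 5.28 and 5.07 at 4 hr. Its log2FC of 2.17 at 1 hr was larger than that of any called gene, but with an SE of 0.57 it did not pass (adjusted p = 0.60 by edgeR, and 0.039 in the model with the acute and challenge libraries). Egr3 and the corepressor gene Nab2, which binds Egr proteins, gave 0.29 and 0.28 at 1 hr and were not called.

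Nr4a1 encodes an orphan nuclear receptor that is made within an hour of neuronal activity. It was at 48.3 and 51.8 CPM at 0 hr, 116 and 115 at 1 hr, 80.3 and 55.3 at 2 hr and 50.3 and 74.6 at 4 hr. The 1 hr mice did not overlap any other mouse, and the log2FC was 1.204 (SE 0.17, adjusted p = 0.000832 by edgeR). Nr4a3 was at 26.0 and 22.6 CPM at 0 hr and 56.8 and 44.2 at 1 hr, where it did not pass the test (log2FC 1.05, adjusted p = 0.12 by edgeR, and 0.028 in the model with the acute and challenge libraries). Nr4a2 was at 3.66 and 21.1 CPM in the 1 hr mice and overlapped the 0 hr mice.

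**Figure D1:**
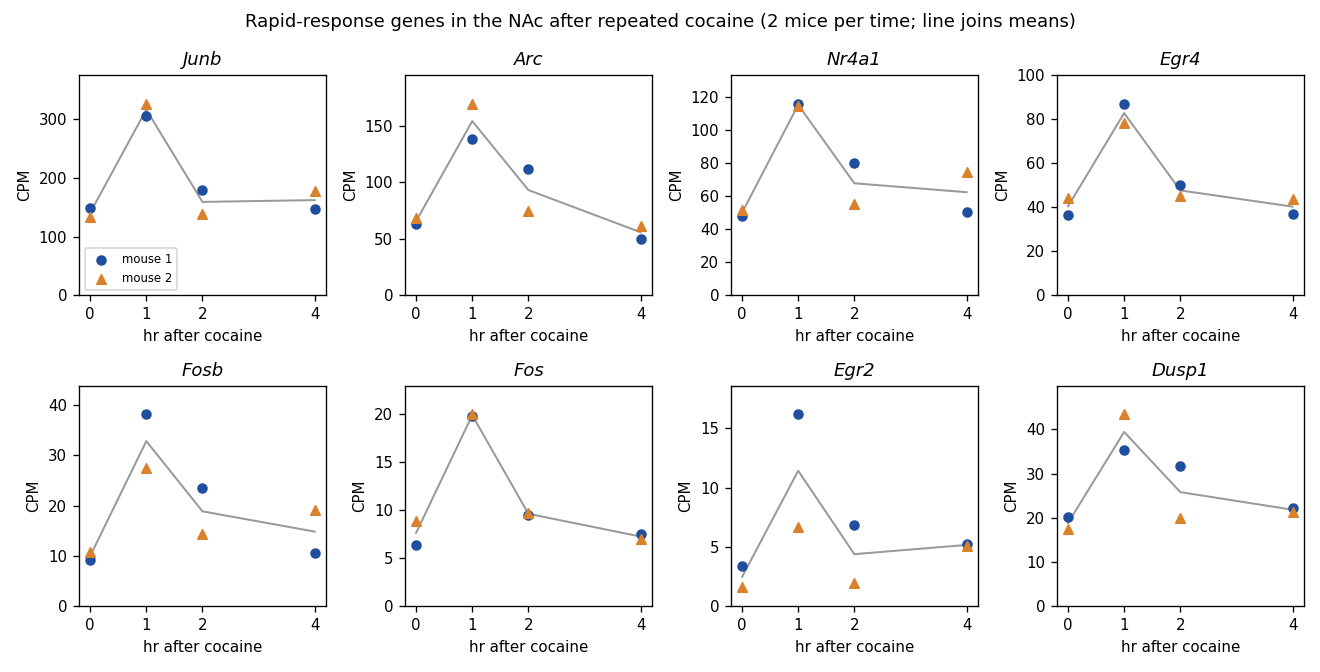
CPM (vertical axis, from 0) of 8 rapid-response genes in each NAc library at 0, 1, 2 and 4 hr after repeated cocaine (horizontal axis). Circles and triangles are the 2 mice of a time point, which are different animals at each time, and the gray line joins their means. Each gene was highest on average at 1 hr, Junb at 305 and 326 CPM. Fos, Egr2 and Dusp1 did not pass the test in the filtered fit of the 8 libraries.

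Among 17 tested genes of other rapid transcription regulators, none was called at any time in the filtered fit of the 8 libraries. At 1 hr both mice were higher than both 0 hr mice for 10 of them and lower for none, where 15.5% of all genes were higher and 15.7% lower. Tiparp, an ADP-ribosyltransferase gene, was at 11.3 and 6.99 CPM at 0 hr, 27.2 and 18.6 at 1 hr, 16.9 and 12.7 at 2 hr and 18.3 and 18.3 at 4 hr. All 6 mice with cocaine on that day were above both 0 hr mice, and the log2FC was 1.31 at 1 hr (adjusted p = 0.20 by edgeR, and 0.016 in the model with the acute and challenge libraries) and 0.99 at 4 hr (adjusted p = 0.71). The most abundant members, Ier5, Scrt2 and Crem, had log2FCs of -0.09, 0.33 and 0.27 at 1 hr.

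Arc was at 62.9 and 68.3 CPM at 0 hr, 139 and 170 at 1 hr, 112 and 74.2 at 2 hr and 50.3 and 61.4 at 4 hr. The 1 hr mice were above all others, the 2 hr mice lay between them and the 0 hr mice, and the 4 hr mice were below the 0 hr mice. The log2FC was 1.23 at 1 hr (SE 0.15, adjusted p = 0.000196 by edgeR) and -0.23 at 4 hr (95% CI -0.58 to 0.11). Arc was the one called gene among 26 tested synaptic and secreted effectors, where 0.0404% of all genes were called. The others with the most reads, Scg2 and Vgf, which encode granins of dense core vesicles, Rheb and Homer1, had log2FCs of -0.05, 0.02, -0.07 and -0.03 at 1 hr. The median of this list was 0.12 at 1 hr, with both mice higher for 8 genes and lower for 2, where 15.5% of all genes were higher and 15.7% lower.

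Among 19 tested MAP kinase phosphatases and other feedback inhibitors of signaling, none was called, and the median log2FC at 1 hr was 0.04. Dusp1, whose product removes phosphate from MAP kinases, had the largest log2FC of the list at 1 hr. It was at 20.2 and 17.5 CPM at 0 hr, 35.4 and 43.4 at 1 hr, 31.7 and 19.9 at 2 hr and 22.2 and 21.4 at 4 hr. Both 1 hr mice were above all others, and the log2FC of 1.07 did not pass (SE 0.22, adjusted p = 0.12 by edgeR, and 0.016 in the model with the acute and challenge libraries). Rgs4, Rgs2, Spred1 and Dusp14, the most abundant members, had log2FCs from -0.03 to 0.10 at 1 hr.

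Between 1 and 4 hr, 6 genes changed (0.0485% of those tested), 5 of them lower at 4 hr (0.0404%) and 1 higher (0.00808%). Without the first 1 hr mouse more genes were called. The 1 hr mouse left in that fit had the highest cortical marker sum, 519 CPM, against 172 in the one left out. Without the first 4 hr mouse, only Arc and Junb were called. Arc fell by 1.47 on the log2 scale (adjusted p = 1.8e-05 by edgeR), Egr4 fell by 1.04 (adjusted p = 0.00171), Junb fell by 0.96 (adjusted p = 6.35e-05), Nr4a1 fell by 0.88 (adjusted p = 0.026) and Egr1 fell by 0.67 (adjusted p = 0.013). Plin4, which encodes a coat protein of lipid droplets, moved the other way. It was at 6.11 and 2.86 CPM at 0 hr (20 and 9 reads), 1.83 and 0.56 at 1 hr (6 and 2 reads), 5.13 and 7.49 at 2 hr and 11.7 and 11.5 at 4 hr. The 1 hr mice were below all others and the 4 hr mice above all others, and the log2FC from 1 to 4 hr was 3.27 (SE 0.56, adjusted p = 0.013 by edgeR). Over the alternative fits it ran from 2.64 to 4.29. In 1 model with the acute and challenge libraries, 4 genes were called between 1 and 4 hr, Arc, Egr4, Junb and Nr4a3, all lower. Plin4, Egr1 and Nr4a1 were not called in that model. A single test over all times called 4 genes (0.0323%), Junb, Arc, Egr4 and Nr4a1, each with its peak at 1 hr. Without the first 1 hr mouse this test called 33 genes, without the second 1 hr mouse 23, without the second 0 hr mouse 12 and without the second 4 hr mouse 8.

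Plin4 is among 30 glucocorticoid and stress-responsive genes, of which 27 were tested and none was called against 0 hr. At 4 hr, both mice were higher than both 0 hr mice for 10 of them and lower for 1, and the median log2FC was 0.29, where 18.7% of all genes were higher and 18.5% lower. Sgk1, a kinase gene with a glucocorticoid response element, was at 128 and 63.5 CPM at 0 hr, 131 and 113 at 1 hr, 84.2 and 87.6 at 2 hr and 145 and 162 at 4 hr. The 4 hr mice lay above both 0 hr mice, which differed from each other more than the mice of any other time (log2FC at 4 hr 0.68, adjusted p = 0.71 by edgeR). Without the first 0 hr mouse, Sgk1 was called higher at 1 and at 4 hr. Without the second, Mt1, Mt2 and Fam107a were called lower at 1 and at 2 hr, with log2FCs from -0.42 to -0.66. Without the second 1 hr mouse, Cdkn1a was called higher and Tsc22d3 lower at 1 hr. With no filter on low counts, Mt2 was called lower at 1 hr, and Sgk1, Arrdc2 and Mfsd2a higher at 4 hr. The metallothionein genes Mt1 and Mt2 were highest in the first 0 hr mouse. Mt1 was at 3762 CPM there and between 2686 and 2992 in the other 7 mice. Mt2 was at 1387 against 831 to 1131, and the astrocyte gene Fam107a at 593 against 362 to 440. Over the whole list the sum was 6703 CPM in the first 0 hr mouse and 4624 to 5506 in the others, against which the 1 hr mice were at 5016 and 4858 CPM.

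**Figure D2:**
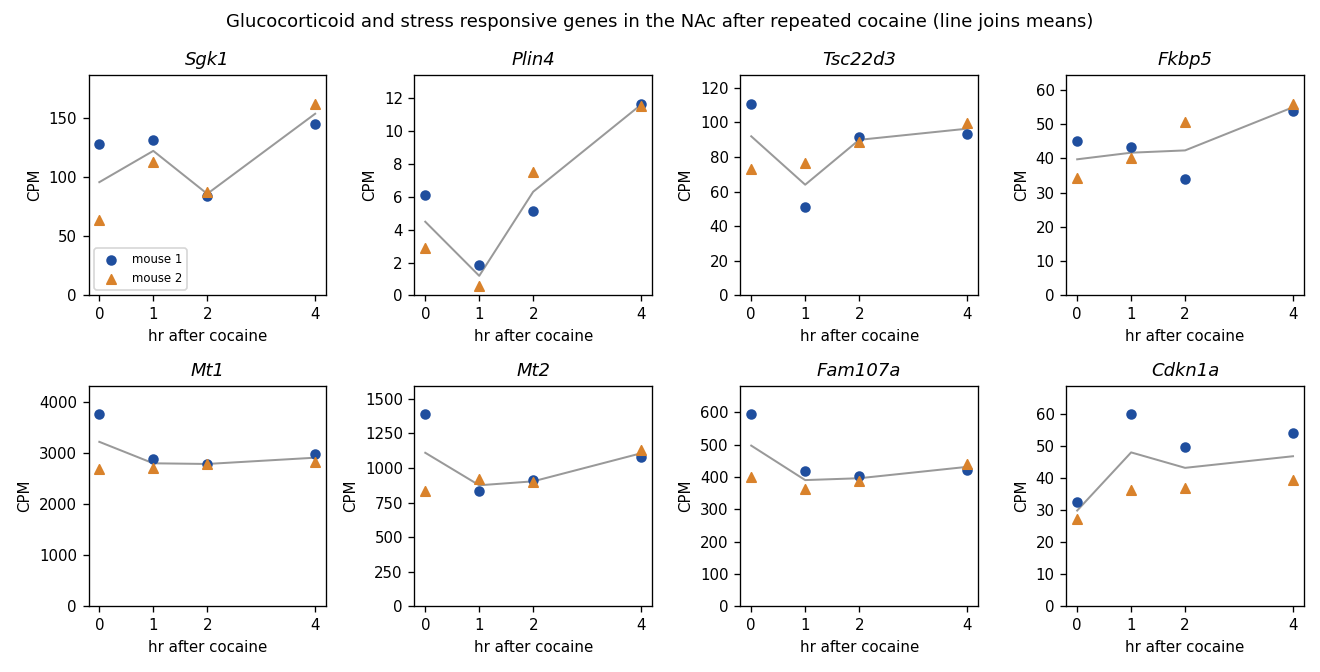
CPM (vertical axis, from 0) of 8 glucocorticoid and stress-responsive genes in each NAc library by hours after repeated cocaine (horizontal axis). Circles and triangles are the 2 mice of a time point and the gray line joins their means. The first 0 hr mouse was above the second for all 8 genes, with Mt1 at 3762 against 2686 CPM, and Plin4 was lowest at 1 hr and highest at 4 hr. The genes of the plot were chosen after their values were seen.

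The circadian clock list held 20 tested genes and none was called. Per1, a clock gene that also responds to CREB, was at 113 and 111 CPM at 0 hr, 153 and 146 at 1 hr, 128 and 125 at 2 hr and 124 and 113 at 4 hr. Both 1 hr mice were highest, with a log2FC of 0.42 that did not pass (adjusted p = 0.49 by edgeR). In a 2-step test over time, run on 24 genes kept because they changed over time across the 3 experiences, these libraries included, Per1 was called (adjusted p = 0.039 by edgeR). The output genes Dbp, Tef and Hlf had log2FCs of 0.23, 0.20 and 0.06 at 1 hr, and the median over the list was 0.10.

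Genes that mark SPNs were not called at any time in the filtered fit. With no filter on low counts, Pde1b was called higher at 2 hr and Arpp21 and Penk at 4 hr. Without the second 1 hr mouse, Gng7, Pde1b and Penk were called higher at 1 hr. The 1 hr mouse left in that fit had a cortical marker sum of 172 CPM, and the one left out 519. At 2 hr both mice were higher than both 0 hr mice for 13 of 14 shared SPN genes, and at 4 hr for 12, where 17.7% and 18.7% of all genes were higher. The median log2FC was 0.10 at 1 hr, 0.20 at 2 hr and 0.21 at 4 hr. The summed CPM of these genes was 9626 and 9980 at 0 hr and 11898 and 9538 at 1 hr. It was 11082 and 11605 at 2 hr and 11878 and 10983 at 4 hr, so the 1 hr mice were the highest and the lowest of all. Ppp1r1b, the dopamine-regulated phosphatase inhibitor DARPP-32, was at 1889 and 1873 CPM at 0 hr, 2356 and 1806 at 1 hr, 2102 and 2420 at 2 hr and 2332 and 2095 at 4 hr. The largest change at 4 hr was that of Arpp21, with a log2FC of 0.29 (adjusted p = 0.71 by edgeR). Of the D2 SPN genes, Penk, which encodes the precursor of enkephalin, was at 2592 and 3034 CPM at 0 hr and 3660 and 3465 at 4 hr (log2FC 0.34, adjusted p = 0.71). Drd2 gave 0.36 at 2 hr and 0.20 at 4 hr. The D1 SPN genes Tac1, Pdyn and Drd1 gave 0.16, 0.22 and 0.15 at 4 hr, and the list medians at 4 hr were 0.27 for D2 genes and 0.10 for D1 genes, a difference that was not tested. In bulk tissue, more cells of a type and more RNA per cell cannot be told apart. The median log2FC at 4 hr was -0.42 over the cortical markers and -1.08 over the ependymal markers. The ependymal sums were 108 and 45.4 CPM at 0 hr, 111 and 58.4 at 1 hr, 65.7 and 34.5 at 2 hr and 40.6 and 44.5 at 4 hr, so that the second 0 hr mouse was close to the 4 hr mice, and 5 of the 7 tested genes overlapped. The medians at 4 hr were 0.35 over mural and fibroblast, 0.26 over oligodendrocyte precursor and 0.17 over oligodendrocyte genes, and -0.04, -0.06 and -0.11 over astrocyte, microglia and endothelial genes. With no filter on low counts, Slc17a7 and Tmem212 were called lower at 4 hr. The part of tissue composition in these values was not tested.

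**Figure D3:**
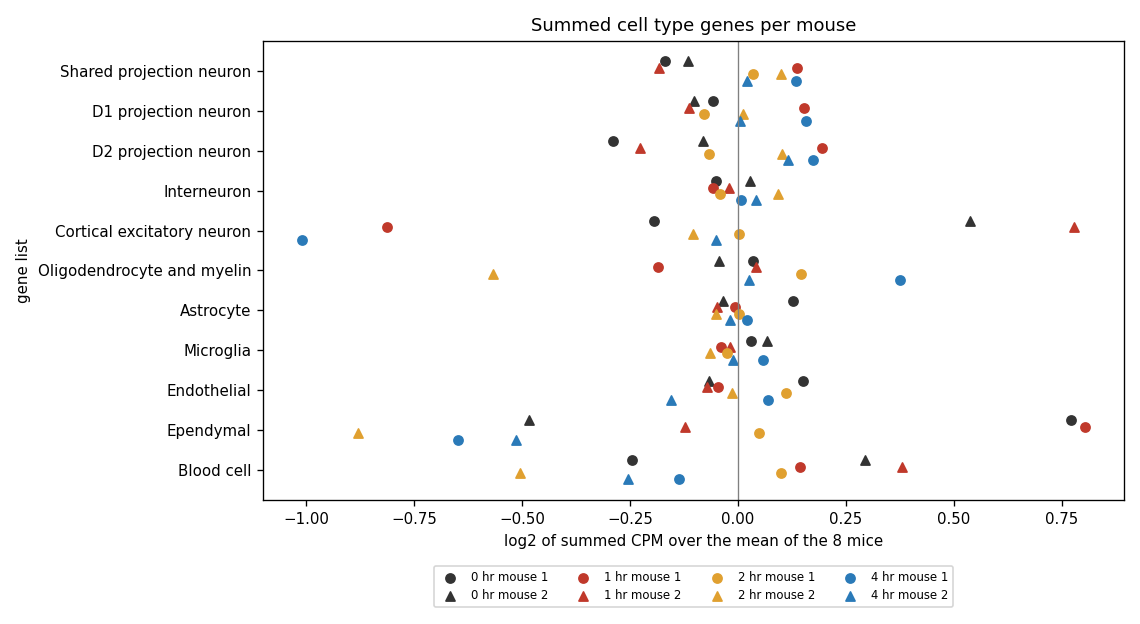
Summed CPM of 11 cell type gene lists in each NAc library, as the log2 of the sum over the mean of the 8 mice (horizontal axis), with 1 row per list. Colors give the time and symbols the mouse. The rows of cortical excitatory neuron, ependymal, oligodendrocyte and blood cell genes spread most, the cortical sums from 150 to 519 CPM, and the interneuron, astrocyte and microglia rows spread least.

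Among 26 postsynaptic glutamate genes, none was called, and Dlgap1 was called lower at 1 hr without the second 1 hr mouse. The median log2FC was 0.01 at 1 hr, 0.03 at 2 hr and 0.04 at 4 hr, where members ran from -0.87 to 0.82. The most abundant, Camk2b, Gria2, Dlgap3 and Grin1, gave 0.06, -0.06, 0.05 and 0.12 at 1 hr. The medians at 1 hr were -0.10 over 20 genes of endoplasmic reticulum chaperones and the unfolded protein response and -0.06 over 14 other chaperones, and none of either list was called at any time. At 4 hr the medians were -0.09 (members from -0.72 to 0.33) and -0.14 (from -0.87 to 0.75). Both 4 hr mice were lower than both 0 hr mice for 6 of the 20 and 7 of the 14, and higher for 0 and 1, where 18.5% of all genes were lower and 18.7% higher. Hspa5, the endoplasmic reticulum chaperone BiP, gave -0.25 at 1 hr, with the mice overlapping, and it was the single gene called lower at 1 hr after acute cocaine (log2FC -0.32, 0.00803% of the genes tested there).

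Acute cocaine in the NAc changed 19 genes at 1 hr (0.153%), 18 of them higher (0.145% of 12448 genes tested, 4 mice per group). Their change after repeated cocaine was measured in other mice of another run. All 5 genes called after repeated cocaine were among them (100% of the 5 and 26.3% of the 19). After repeated cocaine, both 1 hr mice were higher than both 0 hr mice for 16 of the 18, where 15.5% of all genes were, and all 18 had a log2FC above 0. The median log2FC of the 18 genes was 0.86 after acute and 1.04 after repeated cocaine, each in its own fit. The median of their differences, in the 1 model described below, was 0.03. Frmd6 and Sgk1 were the 2 genes whose mice overlapped, with 0.18 and 0.35 after repeated against 1.03 and 0.54 after acute cocaine.

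The difference between the responses was tested in 1 model of 30 libraries, as the change after repeated minus that after acute cocaine. With low counts filtered out, no gene passed at 1, 2 or 4 hr by edgeR (510, 642 and 848 of 12933 genes, or 3.94%, 4.96% and 6.56%, at an unadjusted p under 0.05). With no filter, 5, 16 and 44 differences were called at these times. Over the 18 genes, which the acute values chose, the difference at 1 hr was above 0 for 9 and below 0 for 9, from -0.85 for Frmd6 to 0.65 for Tiparp. Their 95% intervals excluded 0 only for Frmd6 and Tiparp (adjusted p = 0.998 by edgeR for both). For Junb the difference was 0.27 (95% CI -0.10 to 0.64), for Arc 0.29 (-0.35 to 0.94), for Egr4 -0.05 (-0.52 to 0.42), for Fosb 0.57 (-0.16 to 1.30) and for Nr4a1 0.37 (-0.14 to 0.88). The interval of each of these 5 genes included 0 and values on both sides of it.

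**Figure D4:**
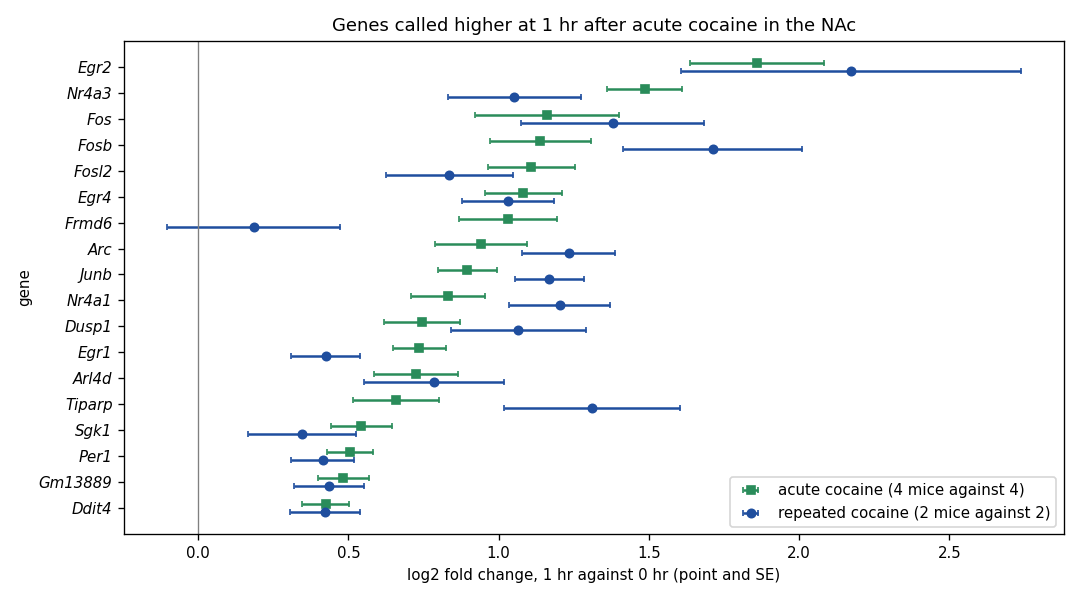
Log2 fold change at 1 hr against 0 hr (horizontal axis, with SE as bars) of the 18 genes called higher after acute cocaine in the NAc, in order of the acute value. Green squares are acute cocaine, 4 mice against 4, and blue circles are repeated cocaine, 2 mice against 2. All 18 circles lie above 0, with Frmd6 lowest at 0.18 and Egr2 highest at 2.17.

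At 2 hr the changes of Arc and Nr4a1 lay on either side of 0. Arc gave 0.52 after repeated and -0.58 after acute cocaine, and Nr4a1 0.45 and -0.48. The differences of 1.10 (95% CI 0.40 to 1.81) and 0.94 (0.38 to 1.497) did not pass the correction (adjusted p = 0.90 by edgeR for both). With no filter on low counts the differences were nearly the same, 1.11 and 0.94, but both were called (adjusted p = 5.57e-07 and 0.000345 by edgeR). The difference in Nr4a1 at 4 hr was also called in that fit (0.84, adjusted p = 0.0048 by edgeR). Acute cocaine changed 61 genes at 4 hr (0.49%), 51 of them lower (0.41%), including 28 ribosomal protein genes, and none of the 61 was called after repeated cocaine. Over the 51 genes the median log2FC was -0.31 after acute and -0.10 after repeated cocaine, with both repeated 4 hr mice lower for 26 and higher for 2, where 18.5% of all genes were lower. Over the 10 genes higher after acute cocaine (0.0803%), the repeated median was -0.11, with both mice higher for 2 and lower for 6, where 18.7% of all genes were higher and 18.5% lower.

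The challenge dose called 8 genes at 1 hr, all higher (0.0651% of 12294). Egr4, Fosb and Junb were called in both experiences (60% of the 5 and 37.5% of the 8). Atf3, a stress-induced transcription factor gene, was called after challenge (log2FC 4.03) and had too few reads after repeated cocaine to be tested, at most 10 in a library. At 2 hr the challenge called 2 genes (0.0163%), Fos and Cdkn1a, a cell cycle inhibitor gene. Cdkn1a gave 1.10 after challenge and 0.54 after repeated cocaine, where both 2 hr mice were above both 0 hr mice. Fos gave 2.31 after challenge and 1.38 after repeated cocaine at 1 hr, and 1.63 and 0.33 at 2 hr. Nr4a1 gave 0.41 after challenge against 1.204 after repeated cocaine, a difference of 0.79 (95% CI 0.21 to 1.36, adjusted p = 0.93 by edgeR, and 0.046 and called with no filter on low counts), and Junb 0.69 against 1.17. With low counts filtered out, no gene passed the test of the difference from challenge at any time by edgeR (685, 880 and 1109 genes, or 5.3%, 6.8% and 8.57%, at an unadjusted p under 0.05). With no filter, 6, 26 and 81 differences from challenge were called at 1, 2 and 4 hr.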

How the data were processed

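Tissue dissected from coronal slices was profiled by 3′-RNA-seq with UMIs. The authors aligned reads to GRCm38 with STAR, counted them with HTSeq, and deposited whole read counts per gene, not normalized, for 19363 genes and 194 libraries. Per the methods of the study, low-depth libraries were removed and the deepest down-sampled. Whether counting used strand is not given in the sources used here. Groups, replicates and runs came from the sample labels. The members and gene lists were chosen with earlier results of these data known.

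Counts of the 8 libraries (3084591 to 4072800 reads) were analysed in edgeR 4.0.16 under R 4.3.3, with genes filtered by filterByExpr, scaled by TMM and compared in quasi-likelihood F tests. DESeq2 1.42.0 served as a second tool. Benjamini-Hochberg adjustment ran across every gene tested, and SE is the size of the log2FC divided by the root of F. Each mouse is 1 library. The p-values set each change against the variation between mice, which the fit estimated for each gene with information pooled over all genes. With 2 mice per group, an exact permutation test cannot go below 0.333, so none was used. Acute and challenge time courses were fitted alone, and differences in 1 model of 30 libraries. Named genes are those called in contrasts with up to 30 calls, list members of high mean count, and genes marked as chosen after their values were seen. The 61 genes called at 4 hr after acute cocaine and the 5 largest differences in each direction are given by counts or ranges. The fits were also run on simulated data, and no result here rests on that outcome, which is not reported. Alternatives were RLE scaling, other filters, DESeq2, a replicate block, a fold change over 1.5, other libraries in the fit, a 2-step test and leaving out each mouse. Plots used matplotlib 3.10.9 in Python 3.11.15.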

Additional observations from a re-analysis of the deposited data

How the results depend on the processing

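With 2 mice per time, the counts of called genes depended on single mice. Leaving out each mouse in turn gave 2 to 28 genes at 1 hr against 0 hr, 0 to 7 at 2 hr and 0 to 4 at 4 hr, 0 to 5 between 1 and 2 hr, 2 to 56 between 1 and 4 hr and 4 to 33 over time. The lowest 1 hr count, 2, was without the first 0 hr mouse, and 12 were called without the second, 28 without the second 1 hr mouse, while 56 between 1 and 4 hr were without the first 1 hr mouse and 2 without the first 4 hr mouse. For the differences in response, the ranges were 0 to 1 at 1 hr against challenge and 0 to 2 for the other 5, where the genes called were Prkcd and Zic1 without the second 0 hr mouse and Sgk1 without the first. A lone mouse is assumed to vary like the other groups. Without a filter on low counts, 18, 7 and 26 genes were called at 1, 2 and 4 hr, 6 and 33 between 1 and 2 or 4 hr, 54 over time, and 5, 16 and 44 differences from acute and 6, 26 and 81 from challenge at 1, 2 and 4 hr. The cause was not tested. In 1 model with the acute and challenge libraries, 10 genes were called at 1 hr (9 higher, among them Dusp1, Egr2, Nr4a3 and Tiparp, and Prkcd lower), 1 at 4 hr (Polr3e) and 9 over time, and the 2-step test called 13 over time, Per1 among them. The replicate numbers did not pair the mice (correlations of deviations from -0.00415 to 0.118). With the number as a replicate block, 10 genes were called between 1 and 4 hr and 12 over time, and no other count moved by over 1.5 times. RLE scaling, DESeq2, a mean of at least 20 counts, a fold change over 1.5 and all challenge libraries moved no count by over 1.5 times. Junb at 1 hr passed in 14 of 14 alternatives, Arc, Egr4 and Nr4a1 in 13, and Fosb in 11. Between 1 and 4 hr, Arc and Junb passed in 14, Egr4 in 13, Egr1 in 12, Plin4 in 10 and Nr4a1 in 9. No direction was reversed.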

Other observations

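Genes with the largest differences between experiences were ones with few reads. The 5 largest in each direction, over the 6 comparisons of repeated with acute or challenge cocaine, differed by 2.88 to 8.06 on the log2 scale. They had at most 16.8 reads per library on average, and the lowest adjusted p among them was 0.214 by edgeR.

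Some better expressed genes, chosen after their values were seen, came closer to passing. At 4 hr against acute cocaine, the difference was -1.54 for Raly, an RNA-binding protein gene, 1.53 for Tiparp, 1.03 for Klf9, a glucocorticoid-responsive transcription factor gene, and 0.96 for Polr3e, a subunit of RNA polymerase III (adjusted p = 0.111 by edgeR for each). Klf9 was at 61.7 and 50.8 CPM at 0 hr and 61.4 and 79.7 at 4 hr after repeated cocaine. Polr3e was at 35.4 and 33.7 CPM at 0 hr, 38.2 and 43.9 at 1 hr, 48.6 and 47.2 at 2 hr and 62.8 and 65.0 at 4 hr, without overlap between 4 hr and any earlier mouse. At 2 hr against challenge, Ttll4, Ddr1 and Sdccag8 had differences of 1.66, -1.01 and 1.57 (adjusted p = 0.0543 by edgeR for each). With no filter on low counts, Klf9 was among the genes called at 4 hr against acute cocaine, and Ddr1 and Sdccag8 at 2 hr against challenge.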
